A study of Danio rerio with 7 samples.

Results

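The genes described here encode 9 digestive enzymes of the exocrine pancreas: the trypsins *prss1*, *prss59.1* and *prss59.2*, the chymotrypsins *ctrb1* and *ctrb.2*, the elastases *ela2l* and *ela2*, and the amylases *amy2a* and *amy2al2*. They were taken from the 33737 Ensembl gene IDs of the deposited tables by their zebrafish symbol. The symbol table matched 8 of the 9 names, and *ctrb1* was matched through RefSeq, which lists it as another name of *ctrb.1* (ENSDARG00000090428). The set was chosen because its transcripts were lower in mutant than in control hearts, so the fall of the 9 genes is given below as a description without a test.

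RNA was sequenced from pools of 100 hearts of zebrafish at 96 h post-fertilization. The mutant pools (4) were homozygous, *cora* stl325/stl325, and the control pools (3) were unaffected clutchmates, all of them carrying *Tg(cmlc2::gfp)*. The stl325 allele of *cora* (*corazoncito*) puts a premature stop into *taf5*, the gene of a TFIID subunit, TFIID being a general transcription factor of RNA polymerase II, and the *cmlc2* promoter drives green fluorescent protein in heart muscle in both groups. The labels call the controls wild type, but unaffected clutchmates can include heterozygous carriers, and whether pools came from separate clutches is not given, so the spread between pools may be partly technical. The sample titles speak of embryos, while the tissue and source labels of all 7 samples give heart and the cell type label gives all cells. One control library has no replicate number and is called the unnumbered control below.

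Acinar cells of the exocrine pancreas make digestive enzymes in very large amounts, store most of the proteases as inactive zymogens and secrete them into the gut. Trypsin cuts after basic residues and activates the other zymogens, chymotrypsin and elastase cut after hydrophobic residues, and amylase, which is secreted in active form, cleaves starch. In mammals and zebrafish the transcription factor Ptf1a is required for acinar cells, and acinar genes are commonly used to mark this tissue. Heart muscle is not known to make them.

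Between 21474488 and 32037220 reads were counted per library. Levels are given as normalized CPM, that is CPM after scaling between libraries by edgeR's TMM method, CPM being a count divided by the library total and put on a common scale. Control replicate 1 stood apart from the other control libraries, with a TMM factor of 0.839 and 33.7% of its counts on mitochondrial genes, against 0.950 to 1.09 and 16.8% to 21.8% in the other 6 libraries. The mutated gene, *taf5*, was at 5.10 to 8.83 normalized CPM in control and 1.97 to 4.56 in *cora* pools. Its log2 fold change was -0.94 and was not called (adjusted p = 0.232, edgeR's quasi-likelihood test). Heart muscle markers were present in all pools. A list of 19 cardiomyocyte names matched 11 gene IDs, and names such as *vmhc* had none. The sum therefore leaves out part of the list and does not give the share of heart muscle. These 11 summed to 357 to 3828 normalized CPM in control and 459 to 2210 in *cora* pools, and control replicate 1 was the lowest of the 7. The 9 enzyme genes together were above this sum in all 3 control pools, the liver and the epidermis markers were above it in all 7 pools, and markers of other organs were present as well, as given further on.

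The 9 enzyme genes together had a lower summed level in *cora* pools. In the control pools, always given in the order replicate 1, replicate 3, unnumbered, they summed to 5444, 19965 and 13111 normalized CPM, a mean of 12840 ± 7264 (SD, n = 3). In *cora* replicates 1 to 4 they summed to 636, 468, 749 and 1172 normalized CPM, a mean of 756 ± 300 (SD, n = 4), which is 17.0-fold lower. The groups did not overlap, and the lowest control pool was 4.65 times the highest *cora* pool. In pooled tissue, fewer acinar cells and less RNA per acinar cell cannot be told apart.

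All 9 genes passed the filter on low counts, and all 9 had non-overlapping groups, as did 8.73% of the 21632 genes tested in the lower direction. A log2 fold change of -4 or less was reached by 6 of the 9 and by 0.19% of all genes tested, and one of -3 or less by 9 of the 9 and by 0.472%. Because the set was chosen on this contrast, nothing is read from these counts. The log2 fold changes ran from -5.89 to -3.44 with a median of -5.26, where the median of all genes tested was -0.03. With each library left out in turn, no gene left the range from -6.23 to -3.01.

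**Figure D1:**
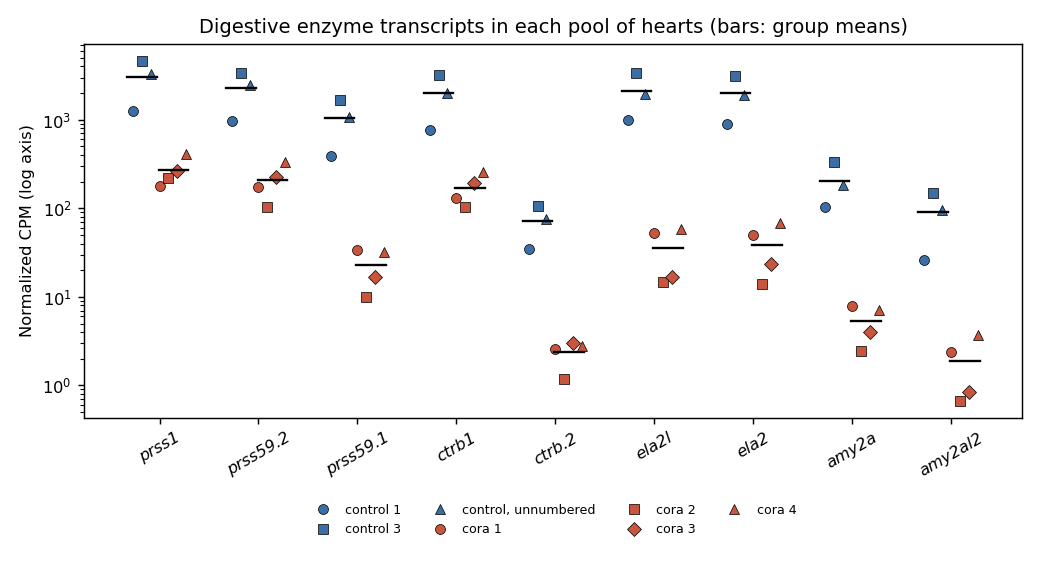
Normalized CPM (log axis) of the 9 enzyme genes in each pool of hearts at 96 h post-fertilization. Blue points are the 3 control and red points the 4 *cora* pools, and bars are group means. For each gene all red points lie below all blue points, and control replicate 1 is the lowest control pool.

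The trypsins held the most reads of any class and did not fall alike. *prss1* (ENSDARG00000042993, chromosome 16, 27320045 to 27324608), the zebrafish trypsin gene of that name, was at 1263, 4612 and 3297 normalized CPM in the control pools and at 180, 220, 263 and 407 in *cora* replicates 1 to 4. The control mean was 11.4 times the *cora* mean, and the fitted log2 fold change was -3.51 ± 0.47 (SE). *prss59.1* and *prss59.2* are trypsin genes that lie 3509 bases apart on the same chromosome, on the same strand, 928398 bases from *prss1*.

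*prss59.2* (ENSDARG00000073742, 28257797 to 28259131) was at 961, 3407 and 2491 normalized CPM in control and at 175, 102, 229 and 335 in *cora* pools, in the same order of libraries. Its log2 fold change was -3.44 (standard error 0.51), close to that of *prss1*. *prss59.1* (ENSDARG00000079274, 28253006 to 28254288) was at 385, 1689 and 1066 normalized CPM in control, but at only 33.8, 9.91, 16.9 and 31.7 in *cora* pools. Its log2 fold change was -5.50 (standard error 0.62), a 45.4-fold difference between the means.

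The 2 neighbours therefore parted within the mutant pools. Per read counted, *prss59.1* was at 0.401, 0.496 and 0.428 of *prss59.2* in control pools. In *cora* replicates 1 to 4 it was at 0.193, 0.0969, 0.0737 and 0.0946 of it, below all control pools. The change in this log2 ratio was -2.04, against an SD of 0.16 between control and 0.60 between *cora* pools. The ratio of *prss1* to *prss59.2* overlapped between the groups, at 1.31 to 1.35 in control and 1.03 to 2.15 in *cora* pools, and its log2 mean differed by -0.0035. Near-identical trypsin genes could have shared reads, and the handling of reads with several matches is not given in the sources used here, so the split between these genes is uncertain.

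Both chymotrypsin genes were lower in *cora* pools, but their counts cannot be taken apart cleanly. *ctrb1* (ENSDARG00000090428, chromosome 7, 36522727 to 36533247) and *ctrb.2* (ENSDARG00000093844, chromosome 7, 36522716 to 36524487) lie on the same strand, and 640 of the 869 exonic bases of *ctrb.2* are also annotated as exons of *ctrb1* in the deposited gene models. *ctrb1* was at 764, 3180 and 2012 normalized CPM in control and at 131, 103, 192 and 258 in *cora* pools, which gave a log2 fold change of -3.54 ± 0.51 (SE).

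*ctrb.2* was the member with the fewest reads in control replicate 3 and in the unnumbered control. It was at 34.9, 107 and 75.9 normalized CPM in control and at 2.60, 1.196, 3.05 and 2.75 in *cora* pools, which gave a log2 fold change of -4.92 ± 0.45 (SE). The ratio of *ctrb1* to *ctrb.2* reads was 21.9 to 29.9 in control and 50.6 to 93.7 in *cora* pools, without overlap. How reads in the shared exons were assigned is not given, and its part in this ratio was not tested.

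The elastase genes showed the largest falls among the 9 genes. *ela2l* (ENSDARG00000056765, chromosome 8, 21904789 to 21910503) was at 999.9, 3365 and 1977 normalized CPM in control and at 53.0, 14.8, 17.0 and 58.0 in *cora* pools. Its log2 fold change was -5.89 (standard error 0.67), a 59.24-fold difference between the means, and only 2 of the genes tested had a lower one. *ela2* (ENSDARG00000056744, chromosome 8, 21914308 to 21919752) lies 3805 bases away on the other strand.

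*ela2* was at 907, 3127 and 1913 normalized CPM in control and at 49.8, 14.0, 23.3 and 68.5 in *cora* pools, which gave a log2 fold change of -5.67 ± 0.66 (SE). The proportion of the 2 elastases to each other changed less than that of the 2 neighbouring trypsins. *ela2l* reads were at 1.033 to 1.103 times those of *ela2* in control and at 0.728 to 1.06 times in *cora* pools, and the groups overlapped. *cora* replicates 3 and 4, at 0.728 and 0.847, were below all control pools. The log2 ratio changed by -0.23, against an SD of 0.05 between control and 0.27 between *cora* pools. The handling of reads with several matches is not given for these genes either.

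The amylases held the fewest reads of any class. *amy2a* (ENSDARG00000013856, chromosome 2, 15433338 to 15447555) was at 103, 331 and 182 normalized CPM in control and at 7.95, 2.43, 3.97 and 7.02 in *cora* pools, which gave a log2 fold change of -5.26 ± 0.53 (SE). *amy2al2* (ENSDARG00000009443, chromosome 17, 42998722 to 43003011) was at 26.2, 148 and 96.1 normalized CPM in control and at 2.39, 0.673, 0.831 and 3.70 in *cora* pools, which gave a log2 fold change of -5.57 ± 0.74 (SE). Its values in *cora* replicates 2 and 3 rest on 18 counts each, the lowest of any member. The ratio of *amy2a* to *amy2al2* reads overlapped between the groups, at 1.90 to 3.94 in control and 1.90 to 4.78 in *cora* pools.

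Across the 9 genes the fall was uneven. Levels were set against the control pools themselves, so any difference between genes in the fall appears as spread in the *cora* pools. Relative to the geometric mean of the control pools, the 9 genes spanned 0.34 to 0.63 on the log2 scale within a control pool, but 1.63, 3.38, 3.66 and 2.43 within *cora* replicates 1 to 4. *prss1*, *prss59.2* and *ctrb1* were the 3 least reduced genes in 4 of 4 *cora* pools, by 0.64, 1.48, 1.08 and 1.57 on the log2 scale above the next gene. Their control means were 10.9 to 11.6 times their *cora* means, whereas those of the other 6 genes were 30.21 to 59.24 times. This grouping was chosen after the values were seen and cuts across the enzyme classes, since each of the 3 has a related gene among the other 6. It rests in part on the splits of *prss59.1* from the other trypsins and of *ctrb.2* from *ctrb1*, for which the assignment of reads is uncertain, as given above.

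**Figure D2:**
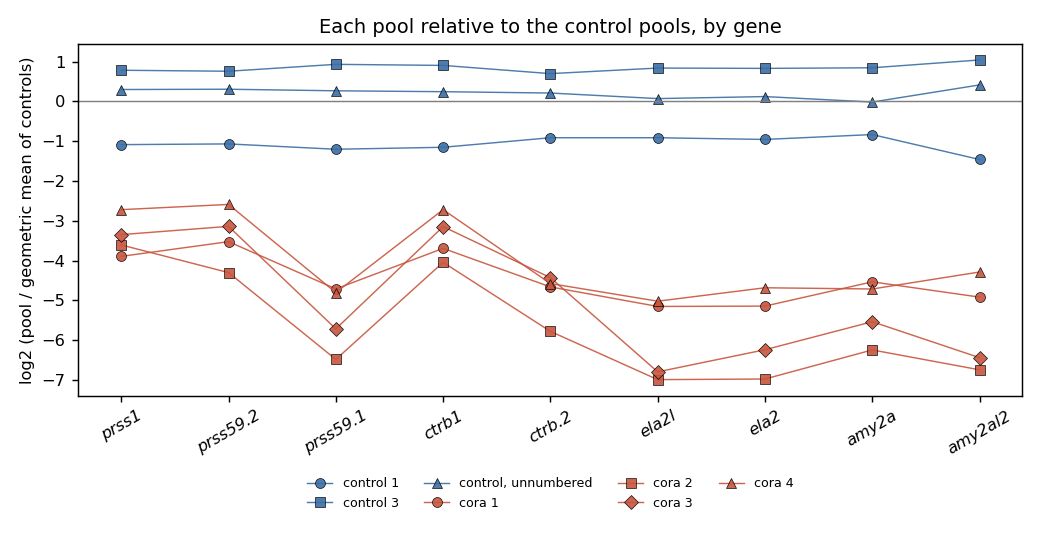
Level of each enzyme gene in each pool as log2 of its ratio to the geometric mean of the 3 control pools, with 1 line per pool. The control pools are the reference, so their lines are nearly level in part by construction. The lines of the 4 *cora* pools are higher at *prss1*, *prss59.2* and *ctrb1* than at the other genes.

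The *cora* pools also did not rank in 1 order. *cora* replicates 2 and 3 were the lowest for both elastases and both amylases and for *prss59.1*, and *cora* replicates 1 and 4 the highest. For *prss1* the lowest was *cora* replicate 1, and for *prss59.2* and *ctrb1* it was *cora* replicate 2. *cora* replicate 4 was the highest for 6 of the 9 genes, all but *prss59.1*, *ctrb.2* and *amy2a*. In the control group the order was the same for all 9 genes: control replicate 3, then the unnumbered control, then control replicate 1.

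By class, the elastases and amylases fell more than the sums of the trypsins and chymotrypsins. Summed over a class, the trypsins were at 6390 ± 3572 normalized CPM (SD, n = 3) in control pools and 501 ± 196 (SD, n = 4) in *cora* pools, a 12.8-fold difference. The chymotrypsins were at 2058 ± 1244 and 173 ± 69.3, an 11.9-fold difference. The elastases were at 4096 ± 2299 and 74.6 ± 47.5, a 54.9-fold difference. The amylases were at 296 ± 175 and 7.24 ± 3.86, a 40.8-fold difference.

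Ratios between classes within a library do not depend on the scaling between libraries. The log2 ratio of elastase to trypsin counts was -0.45, -0.58 and -0.82 in the control pools and -1.92, -3.53, -3.66 and -2.61 in *cora* replicates 1 to 4. The ratio averaged -0.62 ± 0.19 in control (SD, n = 3) and -2.93 ± 0.82 in *cora* pools (SD, n = 4), a difference of -2.31. The log2 ratio of amylase to trypsin counts was -4.43 ± 0.17 in control (SD, n = 3) and -6.22 ± 0.71 in *cora* pools (SD, n = 4), a difference of -1.79. The amylase counts here are those of *amy2a* and *amy2al2*, without *amy2al1*. Neither ratio overlapped between the groups, and both differences were larger than the SDs within a group.

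The log2 ratio of chymotrypsin to trypsin counts overlapped, at -1.66 ± 0.09 in control (SD, n = 3) and -1.54 ± 0.12 in *cora* pools (SD, n = 4). These sums are led by *prss1*, *prss59.2* and *ctrb1*. As shares of the reads of all 9 genes, the elastases held 32.4% ± 2.68 in control (SD, n = 3) and 9.62% ± 4.97 in *cora* pools (SD, n = 4), and the trypsins 49.6% ± 2.34 and 66.5% ± 4.09. As *prss59.1* fell like the elastases and amylases, the class ratios do not describe each trypsin gene.

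**Figure D3:**
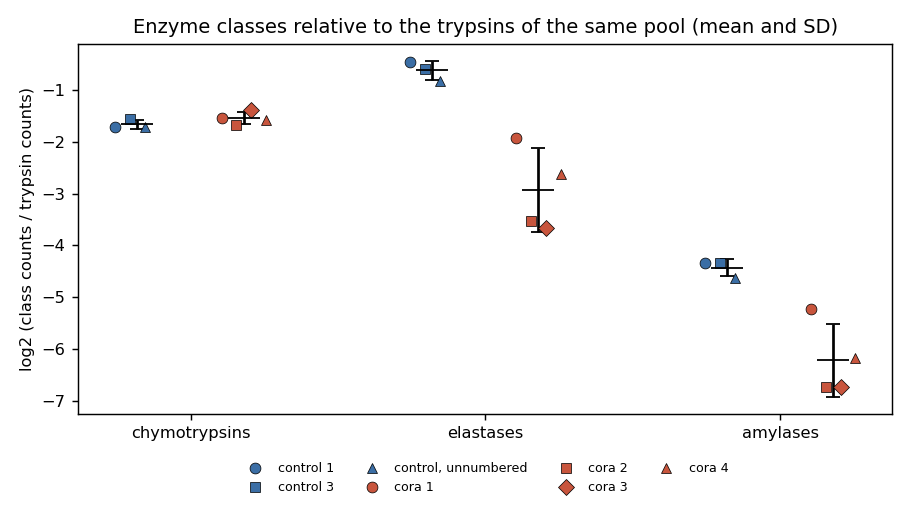
Log2 of the counts of each enzyme class over the trypsin counts of the same pool, with the mean and SD of the 3 control (blue) and 4 *cora* (red) pools. The elastase and amylase ratios are lower in all *cora* than in all control pools, and the chymotrypsin ratios overlap.

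Levels between genes were compared by the deposited RPKM, which divides by exon length, within each library. *prss1* was the highest and *prss59.2* the next in 7 of 7 libraries, at 3560 ± 2153 and 2637 ± 1568 RPKM in control (SD, n = 3) and 310 ± 96.5 and 240 ± 98.8 RPKM in *cora* pools (SD, n = 4). *amy2al2* was the lowest in 7 of 7, at 58.2 ± 41.6 and 1.196 ± 0.850 RPKM. In control pools *ela2* and *ela2l* came next after *prss59.2*, in 3 of 3 libraries. In *cora* pools *ctrb1* took the place after *prss59.2* in 4 of 4 libraries, having been the fifth or sixth in control pools. As *ctrb1* and *ctrb.2* share 640 exonic bases and the assignment of reads there is not given, the places of both genes are uncertain. In control *prss59.1* was above *ctrb1* in 2 of 3 libraries, so these 2 neighbours in the order did not differ beyond their spread, and the same held in *cora* pools for *prss59.1* above *ela2l* and *amy2a* above *ctrb.2*, each in 3 of 4 libraries.

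Other genes of the acinar secretion were taken from a list of 39 names, of which 17 had no gene ID and the others matched 25 IDs. In *cora* hearts edgeR's quasi-likelihood test (adjusted p under 0.05) called 19 of the 23 that could be tested lower and 0 higher, and DESeq2 called 21 and 1. By edgeR 0.86% of all genes tested were lower and 1.11% higher. By DESeq2 3.72% were lower, and 984 of the 21632 genes were higher. The median log2 fold change of the 23 was -4.14, against -0.03 for all genes tested, and the called genes ranged from -5.38 to -2.83. The symbol table writes some zebrafish genes in capitals, and they are given here as it writes them. The count of calls depended on single libraries: it was 7 without control replicate 3, 7 without the unnumbered control, 6 without *cora* replicate 1 and 7 without *cora* replicate 3, and 16 to 20 without any one of the other 3. In the fits with 6 or 7 calls, 0.113% to 0.168% of all genes tested were called lower, and in the others 0.351% to 2.48%. At an unadjusted p under 0.05, 21 of the 23 were lower and 1 higher with all libraries and 21 or 22 were lower with each one left out, where the share of all genes tested was 8.61% with all libraries.

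The most abundant of these genes differed in how far they fell. A carboxypeptidase A gene, *CPA1* (ENSDARG00000021339), which encodes an enzyme that trims residues from the end of peptides, was at 1051, 4398 and 3019 normalized CPM in control and at 197, 326, 332 and 729 in *cora* pools. Its log2 fold change in the quasi-likelihood test was -2.83 ± 0.55 (SE; adjusted p = 0.0432), the smallest of any called gene of the list. The other gene with this symbol, ENSDARG00000030915, had -4.54 (adjusted p = 0.0117).

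*ctrl*, a chymotrypsin-like protease gene, was at 414, 1491 and 945 normalized CPM in control and at 83.3, 81.8, 74.5 and 74.3 in *cora* pools, and its log2 fold change in the quasi-likelihood test was -3.60 ± 0.40 (SE; adjusted p = 0.00734). Its level was nearly the same in the 4 *cora* pools, although *prss1*, *ctrb1* and *ela2l* differed 2.26-fold, 2.503-fold and 3.92-fold between them. *ctrb.3*, another chymotrypsin gene, went from 1998 ± 1186 (SD, n = 3) to 101 ± 60.9 (SD, n = 4) normalized CPM, with a log2 fold change of -4.31 (adjusted p = 0.0234, same quasi-likelihood test).

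*CPB1*, a carboxypeptidase B gene, changed by -4.76 on the log2 scale (adjusted p = 0.0108, quasi-likelihood test), and *ela3l*, another elastase gene, by -5.15 (adjusted p = 0.00520). The genes with the smallest changes in the list were *rnasel3*, *amy2al1*, *CPA1*, *spink4* and *PLA2G1B*. *spink4*, of a family of secreted trypsin inhibitors, was lower with -2.85 (adjusted p = 0.0245, quasi-likelihood test). *PLA2G1B*, the pancreatic phospholipase A2 gene, had -2.98 ± 0.82 (SE) and missed the threshold (adjusted p = 0.101, same test).

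Of the 4 genes that did not pass, *amy2al1* and *rnasel3* were the only ones with a log2 fold change above 0. *amy2al1*, another amylase gene, was at 0.0861, 0.819 and 0.524 normalized CPM in control and at 1.09, 4.26, 3.14 and 4.60 in *cora* pools. Its groups did not overlap, with the *cora* pools on the higher side as in 9.01% of all genes tested, but its value in control replicate 1 rests on 2 counts and it did not pass the quasi-likelihood test (log2 fold change 2.74, SE 0.76, adjusted p = 0.104). DESeq2 called 1 gene of the list higher. At an unadjusted p under 0.05 in the quasi-likelihood test, *amy2al1* was the 1 gene of the list that was higher. *rnasel3*, a secreted ribonuclease gene, was at 38.4, 195 and 198 normalized CPM in control and at 25.1, 31.0, 55.1 and 521 in *cora* pools, and its log2 fold change in the same test was 0.14 ± 1.05 (SE; adjusted p = 0.966). The fourth, *DNASE1*, had -3.36 (adjusted p = 0.0917, same test).

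**Figure D4:**
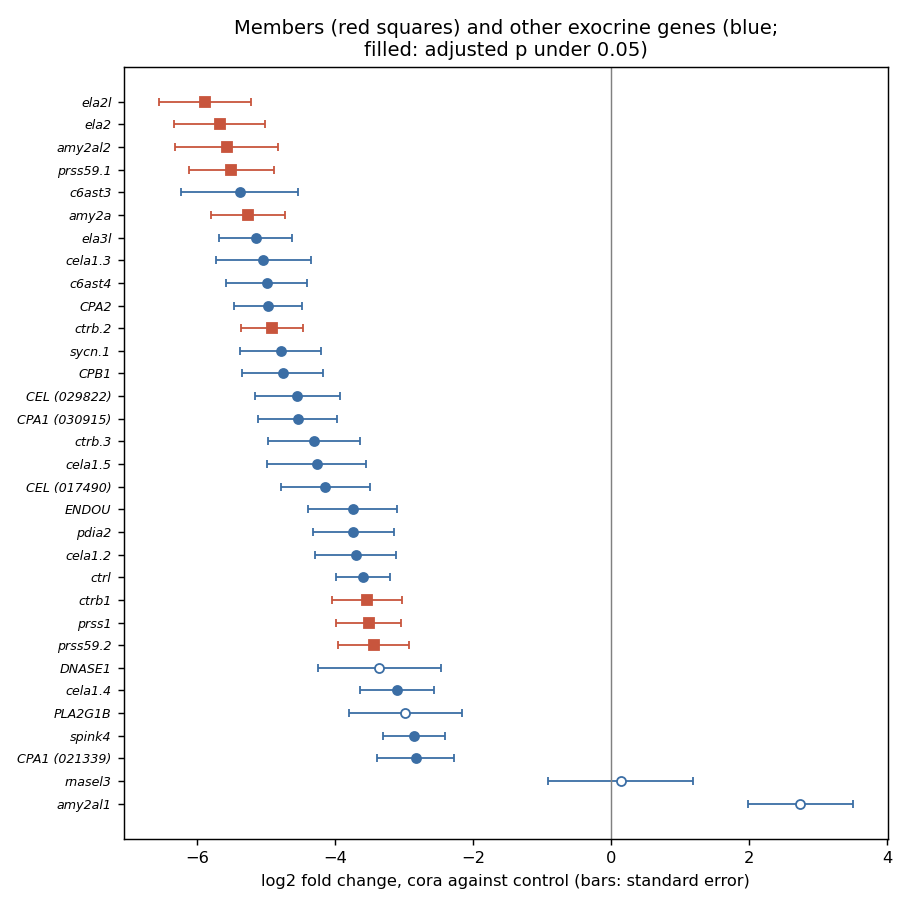
Log2 fold change of *cora* against control pools with its standard error for the 9 members (red squares) and the 23 other exocrine genes tested (blue circles, filled at an adjusted p under 0.05). Digits after *CPA1* and *CEL* are the last 6 of the gene ID. All but *rnasel3* and *amy2al1* lie below 0.

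The genes whose pattern over the 7 pools was most like the mean of the 9 enzymes were mostly other exocrine genes. Likeness was the root mean square difference between centred log2 CPM profiles, over 12340 genes with a symbol and a mean log2 CPM of at least 2, so a small value means a like profile. The closest was *CPB1*, at 0.15, followed by *ela3l* at 0.23 and *c6ast4*, an astacin family metalloprotease gene, at 0.26, where the median of all genes compared was 2.48. Of the 10 closest genes, 8 were on the exocrine list, and the others were *si:dkey-14d8.7*, at 0.33, and *APOD*, at 0.39. The profile is that of genes chosen for their fall, so genes with a like fall are close by construction. A log2 fold change of -4 or less was reached by 12 of the 23 other exocrine genes tested and by 0.19% of all genes tested. Nothing further is read from the count of 8. The 9 enzymes themselves lay at 0.31 to 0.79 from their own mean, with *ctrb.2* and *amy2a* the nearest and *prss1* the farthest. With each library left out in turn, 8 to 10 of the 10 genes stayed among the 10 closest.

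The nearest genes on the chromosomes had smaller log2 fold changes than any member. The nearest tested gene on either side of each member, leaving out exocrine genes, gave 13 genes at 288 to 149677 bases, chosen as neighbours after the member values were seen. Of these, edgeR's quasi-likelihood test called 0 (1 was lower at an unadjusted p under 0.05) and DESeq2 called 0. Over all genes tested, DESeq2 called 3.72% lower. The quasi-likelihood test called 0.86% lower and 1.11% higher (8.61% lower at an unadjusted p under 0.05). With 13 genes, nothing is read from these counts. The log2 fold changes of the 13 ran from -1.02 to 0.46 with a median of -0.19, in the quasi-likelihood test. *alas2*, a heme synthesis gene of red cells that lies within the span of *ela2l* without sharing an exon, had -0.46 (adjusted p = 0.682, same test).

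A list of 11 pancreas regulator names matched 5 gene IDs, of which 4 could be tested. Of these, edgeR called 0 (1 was lower at an unadjusted p under 0.05) and DESeq2 called 1 lower, against 3.72% of all genes tested. *PTF1A* averaged 5.84 ± 3.36 (SD, n = 3) normalized CPM in control pools and 1.403 ± 1.05 (SD, n = 4) in mutant pools, with overlapping groups (log2 fold change -2.05, adjusted p = 0.134, quasi-likelihood test). The other tested regulators were *RBPJL* at -1.50, *XBP1* at 0.03 and *ONECUT1* at 0.57 (adjusted p = 0.605, 0.968 and 0.528, same test). Of 10 islet genes tested, 6 were below 0, from *NEUROD1* at -1.09 to *sst2* at 2.17, with a median of -0.04. Among them *ins* and *gcga*, the insulin and glucagon genes, had log2 fold changes of -0.38 (adjusted p = 0.853, same test) and 1.80 (adjusted p = 0.1403).

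The pools differed in the summed levels of markers of other organs, and the enzymes are set beside these marker lists here. Liver markers (17 IDs matched, none at 0 in any library) summed to 10347 to 32411 normalized CPM in control and 3985 to 29949 in *cora* pools, and the groups overlapped. The liver sum was 3985 and 5362 normalized CPM in *cora* replicates 1 and 2, below every control pool, 12003 in *cora* replicate 3 and 29949 in *cora* replicate 4, the last 2 within the control range. The median log2 fold change of the 17 liver genes was -1.003, with 14 of them below 0 and 2 with non-overlapping lower groups. The ratio of the enzyme to the liver sum was 0.526, 0.675 and 0.405 in control pools and 0.160, 0.0873, 0.0624 and 0.0391 in *cora* replicates 1 to 4, without overlap. The ratios to the islet, intestine, cardiomyocyte, epidermis and other exocrine sums did not overlap either. Because the enzymes were chosen for their fall, such ratios are lower in part by construction, and nothing is read from them.

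Islet markers (11 IDs, none at 0) summed to 339 to 727 normalized CPM in control and 268 to 510 in *cora* pools, with overlap. This sum is led by *NEUROD1*, which averaged 414 normalized CPM in control and 194 in *cora* pools. The hormone genes *gcga* and *sst2* were higher on average in *cora* pools, at 65.5 and 26.5 against 18.9 and 5.87, and *ins* was lower, at 8.39 against 10.9. The groups overlapped for each of these genes, so the sum does not describe each islet gene. By edgeR's quasi-likelihood test (adjusted p under 0.05) 0 of 17 liver and 0 of 10 islet genes tested were called, by DESeq2 2 liver genes were called lower and 2 islet genes higher, and at an unadjusted p under 0.05 3 liver and 2 islet genes were lower and 0 and 2 higher. Intestine markers (14 IDs, 1 of them at 0 in a library) summed to 1667 to 2038 normalized CPM in control and 363 to 1241 in *cora* pools, so this list did not overlap either, and its highest *cora* pool was *cora* replicate 1. Of its 14 genes tested, edgeR called 1 lower (5 at an unadjusted p under 0.05) and DESeq2 called 4 lower. Over all genes tested, edgeR called 0.86% lower (8.61% at an unadjusted p under 0.05). DESeq2 called 3.72% lower and 984 of the 21632 genes higher. Epidermis markers summed to 11109 to 38277 normalized CPM in control and 17838 to 29816 in *cora* pools. The part of dissection and of the mix of tissues in the fall of the enzymes was not tested.

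Control replicate 1 was the pool lowest in enzymes among the controls. It was also the lowest control in the liver, islet and cardiomyocyte sums and the highest in the epidermis sum. The islet sum was led by *NEUROD1*, at 245, 415 and 581 normalized CPM in the control pools. The islet order did not hold for each gene. *ins* and *gcga* were lowest in control replicate 3, at 2.25 and 8.10 normalized CPM, against 4.35 and 16.0 in control replicate 1. Without control replicate 1, the median log2 fold change of the 9 enzymes was -5.57. Of the reads of the 9 genes in this pool, the elastases held 35.0%, the trypsins 47.9% and the chymotrypsins 14.7%, each just outside the range of the other 2 controls, which was 29.7% to 32.5%, 48.6% to 52.3% and 15.9% to 16.5%.

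**Figure D5:**
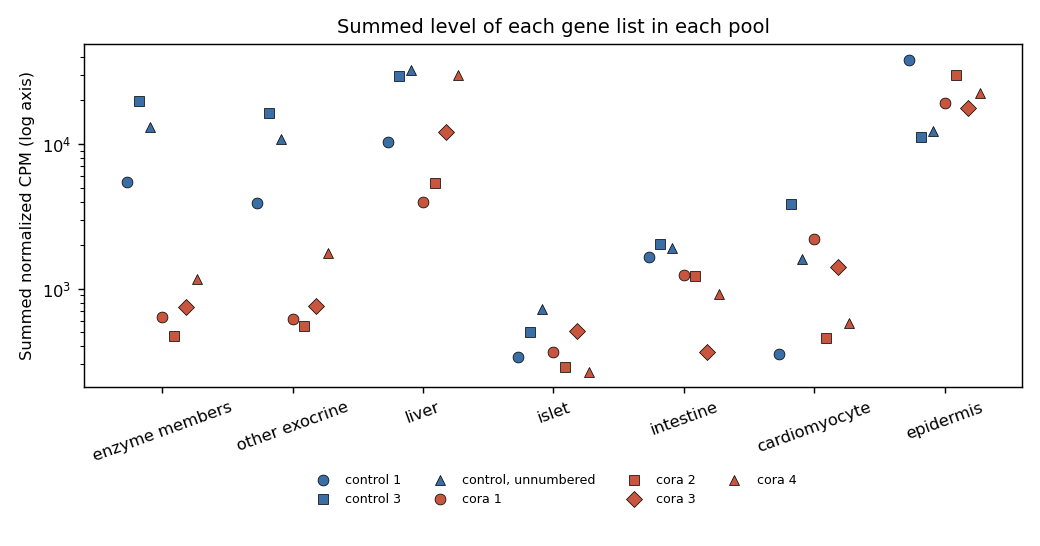
Summed normalized CPM (log axis) of the 9 enzymes, the other exocrine genes and marker lists of 5 other tissues in each pool, with control pools in blue and *cora* pools in red. The enzyme and other exocrine sums are lower in all *cora* pools, the intestine sums as well by a smaller factor, and the liver, islet, cardiomyocyte and epidermis sums overlap.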

How the data were processed

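Libraries of 3 control and 4 *cora* pools were used. The authors deposited, per library, whole-number counts of reads on 33737 Ensembl gene IDs, without normalization; CPM, as deposited, divides each count by the library total, and RPKM, as deposited by the authors, divides CPM by exon length. The submitters' processing notes name STAR 2.0.4b, Subread, featureCounts 1.4.5, edgeR and limma; the genome build, the strand setting and how reads matching several places were counted are not given in the sources used here.

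Symbols were paired with 21939 IDs. The tests used edgeR 4.0.16 in R 4.3.3: TMM, filterByExpr, glmQLFit and glmQLFTest without a covariate over the 21632 genes kept, with Benjamini-Hochberg adjustment over all of them. Standard errors came from the F statistic. CPM entered no test, and RPKM served for levels within a library. Counts of 3 correspond to 0.0936 to 0.140 CPM; no 2 replicates agreed within sampling noise.

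The members and lists were chosen with earlier results of these data known. Named genes are all members, the 5 most abundant and 5 least changed genes of the exocrine list, and the 10 genes closest in pattern; others were named after their values were seen. Alternatives were DESeq2 1.42.0, its size factors, library size alone, no filter, at least 10 counts per library, a prior count of 2, each library left out, and the replicate number as a block. No sequence was used here.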

Additional observations from a re-analysis of the deposited data

Results flagged for a closer look

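Of 25 values or ratios examined for a *cora* library far from the other 3, 1 stood out: *rnasel3* was at 521 normalized CPM in *cora* replicate 4, against 25.1 to 55.1 in the other *cora* pools, and the gap to the nearest pool was 0.939 of the whole range. Chance alone sets about 1 in 20 groups apart in this way.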

How the results depend on the processing

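The 9 members kept a log2 fold change below 0 under each alternative, and 135 of 135 single values moved by less than the SD between pools. The number of genes called lower was 186 by the quasi-likelihood test, 805 by DESeq2 (21 of 23 exocrine genes), and 25 to 548 with each library left out; the exocrine count of 19 then ranged from 6 to 20. With the 4 libraries numbered 1 and 3, edgeR called 0 genes and 0 exocrine genes lower with the replicate number as a block, and 0 and 0 without the block, which was chosen after seeing the data; at an unadjusted p under 0.05 the block gave 1101 genes and 22 of 23 exocrine genes. The numbers are not stated to mark a shared clutch: deviations from the group means correlated at 0.058 for number 1 and 0.032 for number 3, so the replicate block was not read as a pairing. The chymotrypsin to trypsin difference of 0.12 changed sign, to -0.061 with genes weighted equally, to -0.0089 with 1 gene per class and to -1.31 without *ctrb1*, the last chosen after seeing the data. The elastase and amylase differences kept their sign in all alternatives run, at -2.65 to -2.07 and -2.12 to -1.61 with each library left out. Levels of *amy2al2* and *ctrb.2* in *cora* pools rest on 18 to 90 and 32 to 67 counts.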

Other observations

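Among the 14 intestine markers tested, edgeR called 1 gene lower and DESeq2 4, against 0.86% and 3.72% of all genes tested. The edgeR call was *MEP1B* (ENSDARG00000037533), of a brush border metalloprotease and named after its value was seen. It averaged 13.6 ± 2.58 (SD, n = 3) normalized CPM in control pools and 0.268 ± 0.267 (SD, n = 4) in mutant pools. Its log2 fold change in edgeR's quasi-likelihood test was -5.61 ± 0.73 (SE; adjusted p = 0.0123), beside -5.89 and -5.67 for *ela2l* and *ela2*. The *cora* values of this *MEP1B* gene were 0.251, 0.636, 0.185 and 0 normalized CPM. Its fold change thus rests on few counts, unlike those of the elastases, and its size is uncertain. The other gene with this symbol (ENSDARG00000040683) had -1.09 (adjusted p = 0.531, same test). *tmprss15*, which encodes enteropeptidase, the intestinal protease that activates trypsin, averaged 2.83 ± 2.25 (SD, n = 3) normalized CPM in control pools and 0.885 ± 0.585 (SD, n = 4) in mutant pools, with overlapping groups (adjusted p = 0.300, same test).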
